A study of Mus musculus with 6 samples.

Results

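The T-cell receptor gamma constant genes Tcrg-C1, Tcrg-C2 and Tcrg-C4 were examined with 5 genes of early lymphoid and T cells, Cd3e, Cd3g, Il7r, Dntt and Rag1, in a mouse model of blast crisis chronic myeloid leukemia (bcCML). These 8 genes, of 36083 in the table, were picked by name with their values in this comparison already known, so their differences between the groups are a description, and no test of them is read as evidence. RNA-seq was made from 2 groups with 3 libraries each. In both groups KLS cells (c-Kit+ Lin- Sca-1+ stem and progenitor cells) of B6 background were transduced with BCR-ABL and NUP98-HOXA9, cells holding both vectors were transplanted into NSG mice, and Lin- bcCML cells were sorted from the spleens of mice killed at the same time. The WT libraries came from wild-type donors and the libraries labelled Sdc1-/- from donors whose Syndecan-1 gene, Sdc1, was altered so that the protein does not reach the cell surface. No age is given for these mice in the labels. The labels name NSG recipients, which lack T, B and NK cells of their own. The study's general methods for bcCML transplants name another recipient strain. Its gating for bcCML of primary transplants, given for this RNA-seq too, took cells positive for the markers of both vectors and then Lin- cells. Only donor cells were transduced, and any share of host lymphoid cells left after the sort was not tested. Antibodies to CD3ε, CD4, CD8 and B220 were part of the lineage stain, so the sort itself removed cells with surface CD3ε. The study calls the replicates of its RNA-seq on Lin- WT bcCML technical, and the labels do not say whether the libraries of a group came from separate mice, so every SD (n = 3) and p-value below measures the spread between these libraries, which may be technical only.

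A T-cell receptor is assembled by joining V, D and J gene segments, which RAG1 and RAG2 cut and which terminal deoxynucleotidyl transferase, the product of Dntt, diversifies by adding bases at the joints. The joined segment is spliced to a constant gene, and the receptor chain reaches the surface only with the CD3 chains. Gamma chains pair with delta chains in γδ T cells. The interleukin-7 receptor, whose α chain is made by Il7r, signals through JAK1, JAK3 and STAT5 in lymphoid progenitors and opens the gamma locus to recombination. Transcripts of unrearranged constant genes can also be made from their own start sites, before or without joining.

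The gamma locus covers chr13:19178024-19352756 in GRCm38, the same assembly as the mm10 build of the files, and holds 15 annotated genes, 7 V, 4 J and 4 constant. Tcrg-C1 lies at chr13:19214103-19217024 on the plus strand, Tcrg-C3 at chr13:19260884-19263528 on the plus strand, Tcrg-C2 at chr13:19304649-19307551 on the minus strand and Tcrg-C4 at chr13:19344558-19352756 on the plus strand. Of the lymphoid genes, Cd3g (chr9:44969572-44980431) and Cd3e (chr9:44998740-45009627) are close neighbours on the minus strand, Il7r lies at chr15:9505788-9530176 on the minus strand, Dntt at chr19:41029275-41059525 on the plus strand and Rag1 at chr2:101638282-101649501 on the minus strand. The opening 120 bases of the first constant exon are shown for the 4 constant genes because reads from near-identical copies can be divided between them by an aligner. They are read 5′ to 3′ on the coding strand from the GENCODE transcripts, and capitals mark the bases that differ from Tcrg-C1.
Tcrg-C1: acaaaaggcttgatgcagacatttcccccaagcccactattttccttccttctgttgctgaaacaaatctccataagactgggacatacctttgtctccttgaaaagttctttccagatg
Tcrg-C2: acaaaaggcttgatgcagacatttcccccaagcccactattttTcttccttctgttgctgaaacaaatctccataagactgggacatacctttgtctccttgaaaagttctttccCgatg
Tcrg-C3: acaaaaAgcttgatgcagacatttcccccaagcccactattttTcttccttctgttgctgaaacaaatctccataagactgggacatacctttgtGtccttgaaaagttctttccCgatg
Tcrg-C4: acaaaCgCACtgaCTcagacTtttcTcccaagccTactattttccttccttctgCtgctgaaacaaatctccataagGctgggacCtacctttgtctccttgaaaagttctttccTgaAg
In GRCm38 these stretches are chr13:19214103-19214222 for Tcrg-C1, chr13:19307432-19307551 for Tcrg-C2, chr13:19260885-19261004 for Tcrg-C3 and chr13:19344558-19344677 for Tcrg-C4. Tcrg-C2 differed from Tcrg-C1 at 2 of the 120 bases, Tcrg-C3 at 4 and Tcrg-C4 at 14. Identity was counted over the bases of the transcripts that aligned without gaps, where Tcrg-C1 has 924 bases in all. Tcrg-C1 was 96.1% identical to Tcrg-C2 over 909 bases and 97.2% identical to Tcrg-C3 over 647. The identical runs reached 104 and 122 bases, longer than the 75-base reads. Identity of Tcrg-C1 to Tcrg-C4 was 77.1% over 878 bases, with no identical run over 29 bases. Of the 31-base words in Tcrg-C1, 51.0% also occur in another gene. This share was 45.9% for Tcrg-C2, 58.6% for Tcrg-C3 and 0 of 955 words for Tcrg-C4. At the read length of 75 bases the shares were smaller, 150 of 850 words (17.6%) for Tcrg-C1 and 77 of 840 (9.2%) for Tcrg-C2. For Tcrg-C3 143 of 650 words of that length were shared, and for Tcrg-C4 0 of 911. In this annotation Tcrg-C4 thus has no such word to share with another gene, whereas the levels of Tcrg-C1, Tcrg-C2 and Tcrg-C3 may depend on how reads were divided, and how the authors' quantification divided them was not tested.

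The values are TPM, a read share corrected for transcript length, rescaled between libraries by the authors, and summed to between 944973 and 1058263 per library. Read depth is unknown, so no counting interval can be given, and a gene listed at 0 may have been missed. Between the groups, 7374 of the 12155 genes whose mean value reached 1 passed the limma test at an adjusted p of 0.05, which is 60.7% of them, 29.3% being higher and 31.3% lower in those labelled Sdc1-/-. Libraries of one group correlated across genes at 0.9929 to 0.996 and those of different groups at 0.9682 to 0.9716. Sdc1 itself was 1.49 ± 0.27 (SD, n = 3) in the WT libraries and 3.92 ± 0.17 in those labelled Sdc1-/-, a log2 fold change of 0.99 (SE 0.093, adjusted p = 1.2e-04, and 0.1 by the exact two-sided permutation test, the smallest that 3 against 3 libraries allow). The message was thus higher in the libraries labelled as the knockout, and the groups are named by their labels throughout. The cells carried a myeloid program in both groups, with Mpo (myeloperoxidase) at 322 ± 11 and 245 ± 4.2 and Ctsg (cathepsin G) at 285 ± 7.4 and 182 ± 8.3. Of 14 myeloid blast and progenitor markers 4 rose and 9 fell in those labelled Sdc1-/-, among them Meis1 (log2 fold change 1.07, adjusted p = 3.2e-06), Csf1r (-0.97, adjusted p = 1.1e-04), Cebpa (-0.91, adjusted p = 1.1e-05) and Spi1 (-0.90, adjusted p = 3.8e-05).

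Tcrg-C1 was one of the most abundant messages of these leukemia cells, and Tcrg-C2 and Tcrg-C4 were far lower and higher in those labelled Sdc1-/-. Tcrg-C1 had a level of 885, 914 and 900 in the WT libraries and of 950, 987 and 949 in those labelled Sdc1-/-. It ranked between 165 and 171 among all genes in the WT libraries and between 147 and 158 in the others. The groups did not overlap, but their means, 899.8 ± 14.3 (SD, n = 3) and 962 ± 22, differed by only 1.07-fold, a log2 fold change of 0.096 (SE 0.030). On values scaled to the same sum that change was 0.25, where the median of all genes also moved, from -0.0097 to 0.12, and after quantile normalization it was 0.22. Relative to the median of all genes, the difference of Tcrg-C1 was 0.11, 0.12 and 0.205 on these 3 scales.

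Tcrg-C2 had a level of 13.8, 13.6 and 13.6 in the WT libraries and of 35.1, 33.1 and 35.5 in those labelled Sdc1-/-. The WT libraries lay within 0.086 (SD) of their mean of 13.7, and every library labelled Sdc1-/- was above all of them, with a mean of 34.6 ± 1.2. The means differed 2.53-fold, a log2 fold change of 1.28 (SE 0.039). Tcrg-C4 had a level of 8.69, 9.17 and 8.49 in the WT libraries and of 39.6, 40.7 and 41.1 in the others. Its means of 8.78 ± 0.35 and 40.5 ± 0.79 (SD, n = 3) differed 4.61-fold, a log2 fold change of 2.08 (SE 0.041), the widest difference among the 3 of the 8 genes whose mean reached 1. In the WT libraries Tcrg-C2 was above Tcrg-C4 in each library and in those labelled Sdc1-/- Tcrg-C4 was above Tcrg-C2 in each, so the order of these 2 constant genes was exchanged between the groups.

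**Figure D1:**
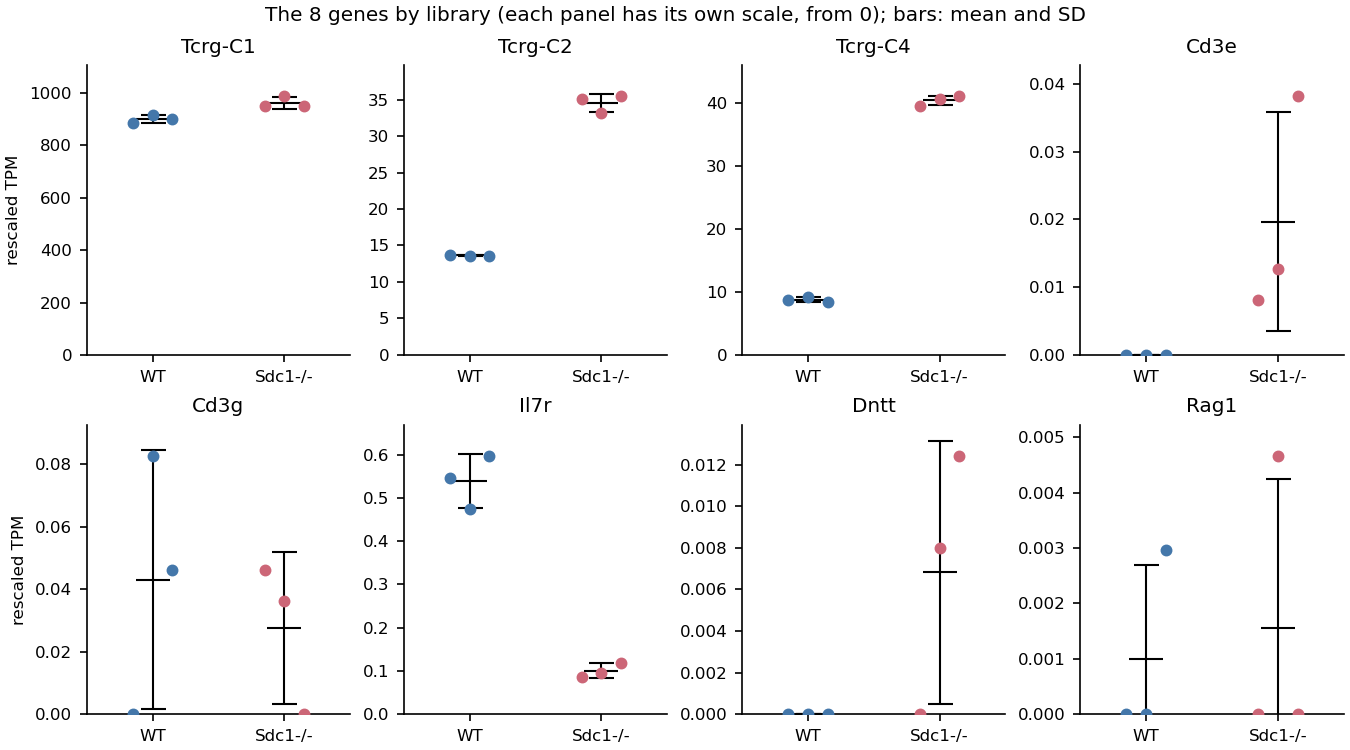
Rescaled TPM (vertical axes, linear from 0, each with its own range) of the 8 genes in the 3 WT libraries (blue) and the 3 libraries labelled Sdc1-/- (red), with the mean and SD in black. Tcrg-C1 stands at 885 to 987 in all libraries, Tcrg-C2 and Tcrg-C4 are separated between the groups, Il7r is separated the other way at values under 1, and Cd3e, Cd3g, Dntt and Rag1 stay below 0.1.

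Of the 8 genes, 3 reached a mean of 1 and entered the limma fit, Tcrg-C1, Tcrg-C2 and Tcrg-C4. All 3 were past the threshold, where 60.7% of all genes tested were, and in all 3 the libraries of the groups did not overlap, as in 66.7% of all genes tested. Tcrg-C2 and Tcrg-C4 were also at least 2-fold higher in the libraries labelled Sdc1-/-, as were 1.91% of all genes tested. Nothing is read from these counts, because the genes were chosen on this contrast. Tcrg-C1 was the one near the threshold and did not pass without a variance trend, without a minimum mean, or without WT replicate 1, WT replicate 3 or Sdc1-/- replicate 2. The other 5 genes had means below 1 and their log2 fold changes come from the fit of all genes with no minimum, where the log2(value + 1) scale understates changes at such levels.

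Tcrg-C3, the remaining constant gene, is not among the 8 and was measured at 3.89, 4.25 and 3.52 in the WT libraries and at 7.99, 9.13 and 9.08 in those labelled Sdc1-/-. It was higher in the latter by 0.996 on the log2 scale (SE 0.078, adjusted p = 5.1e-05). Expressed as a share of Tcrg-C1 in the same library, Tcrg-C2 stood at 1.52 ± 0.032% in the WT libraries and 3.60 ± 0.21% in the others, Tcrg-C3 at 0.431 ± 0.038% and 0.908 ± 0.060%, and Tcrg-C4 at 0.976 ± 0.030% and 4.21 ± 0.11% (SD, n = 3). None of these shares was constant between the groups, so the levels of Tcrg-C2, Tcrg-C3 and Tcrg-C4 did not follow that of Tcrg-C1 in a fixed ratio. Tcrg-C1 made up 97.1% to 97.2% of the 4 constant genes in the WT libraries and 91.7% to 92.2% in those labelled Sdc1-/-. Summed over the 4 genes the level was 926 ± 15 and 1046 ± 21, a difference of 0.175 on the log2 scale. The sum of the 3 near-identical genes Tcrg-C1, Tcrg-C2 and Tcrg-C3 was 917 ± 14 and 1005 ± 21, a difference of 0.13.

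**Figure D2:**
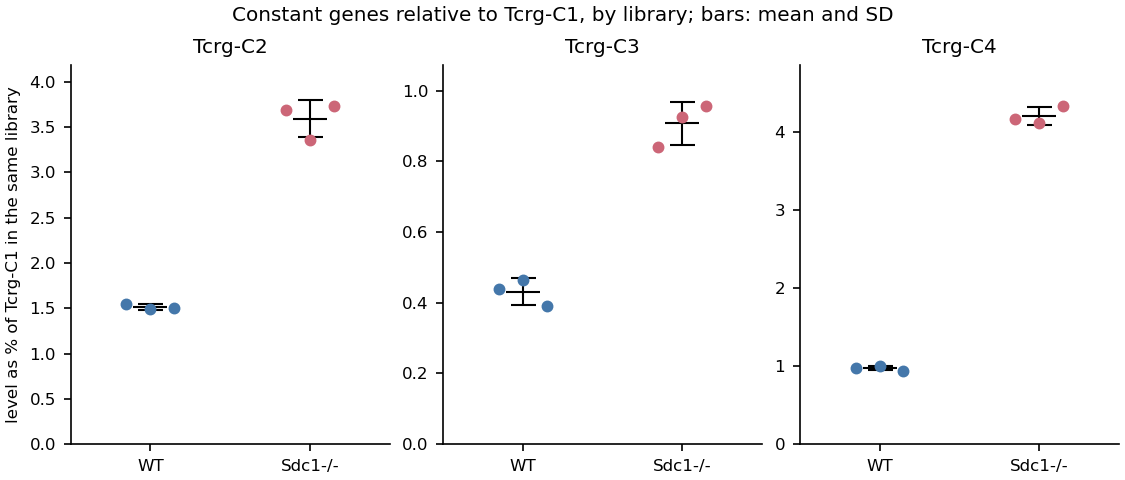
Level of Tcrg-C2, Tcrg-C3 and Tcrg-C4 as a percentage of Tcrg-C1 in the same library (vertical axes from 0, each with its own range) for 3 WT libraries (blue) and 3 libraries labelled Sdc1-/- (red), with the mean and SD in black. Tcrg-C4 goes from 0.976% to 4.21% of Tcrg-C1 and passes Tcrg-C2, which goes from 1.52% to 3.60%.

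The V and J genes of the same locus were at or near 0 beside these constant genes. The 4 J genes, each shorter than a single read, and the V genes Tcrg-V1 and Trgv2 were listed at 0 in all 6 libraries. Tcrg-V7, the V gene with the highest level, had 1.34, 1.21 and 0.337 in the WT libraries and 0.225, 0.709 and 1.38 in those labelled Sdc1-/-, and Tcrg-V5 had 0.926, 0.242 and 0.535 against 0.134, 0.211 and 0.328. These values overlapped between the groups for Tcrg-V7 and for Tcrg-V5, and no V gene reached a mean of 1. Per library the V and J genes together came to 1.69 ± 0.68 in the WT group and 1.36 ± 1.06 in the other, beside constant genes that summed to 926 and 1046. An antisense gene, Gm31887, overlaps the V genes Tcrg-V7, Tcrg-V4, Tcrg-V6 and Tcrg-V5 but not the other V genes. The strand setting of the quantification is not given in the sources used here, so reads of these overlapped V genes and of Gm31887 cannot be told apart with certainty.

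The genes beside the locus did not share the differences of Tcrg-C2 and Tcrg-C4. On the V gene side, Vps41, a vesicle trafficking gene, was lower in the libraries labelled Sdc1-/-, 30.9 ± 0.062 against 26.0 ± 0.57 (log2 fold change -0.24, adjusted p = 6.8e-04), and Amph was at 0.483 and 0.439, under the minimum. On the side of Tcrg-C4, Stard3nl, whose annotated span ends nearest to it, was at 30.5 ± 1.0 and 33.4 ± 1.1 (log2 fold change 0.13, adjusted p = 0.032), a call lost without WT replicate 1 or 3 or without Sdc1-/- replicate 1 or 2. Epdr1 was at 55.1 ± 0.96 and 50.6 ± 1.2 (log2 fold change -0.12, adjusted p = 0.016), which turned to 0.025 on values of equal sum and missed the threshold after quantile normalization and without WT replicate 1. Of the 7 tested genes of the locus and its neighbours, 5 were higher and 2 lower, beside 29.3% and 31.3% of all genes tested. These 7 calls include Tcrg-C1, Tcrg-C2 and Tcrg-C4, which were chosen on this contrast. The calls fell to 4 without WT replicate 1.

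**Figure D3:**
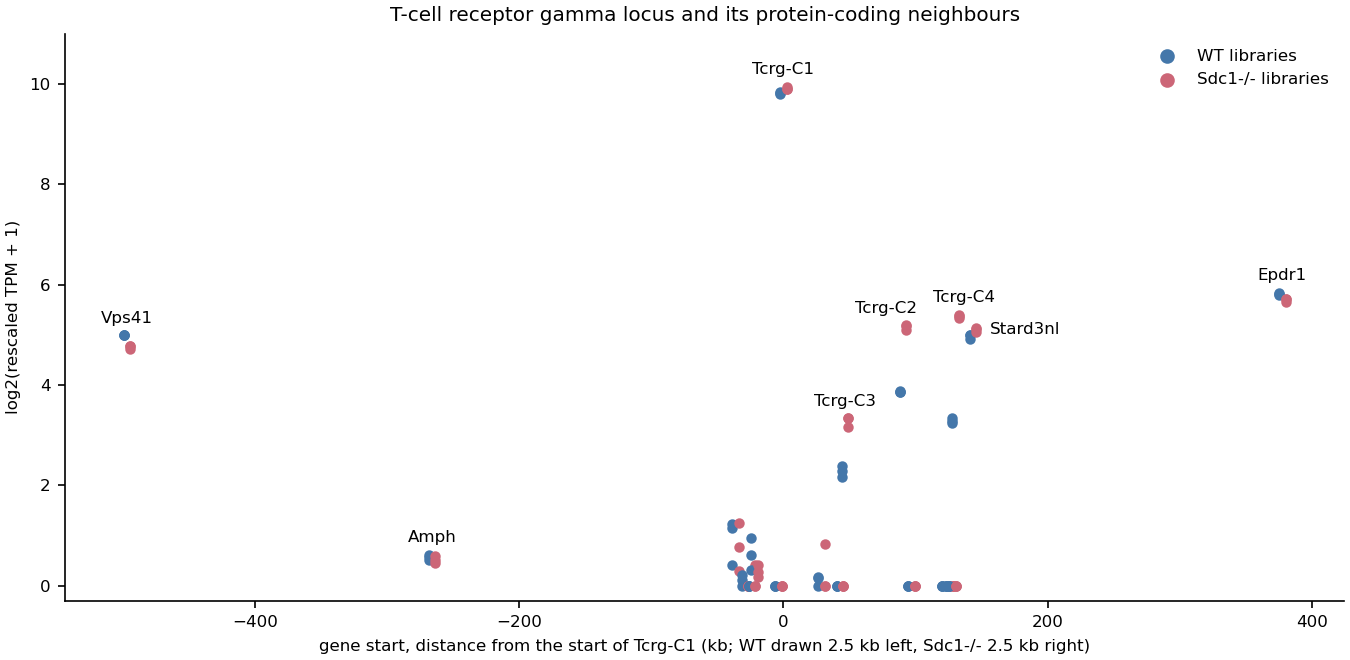
Level on the log2(rescaled TPM + 1) scale (vertical axis) of each gene of the T-cell receptor gamma locus and of the 2 nearest protein-coding genes on each side, against the distance of its start from that of Tcrg-C1 in kb (horizontal axis), with a point per library, WT in blue and those labelled Sdc1-/- in red. Tcrg-C1 stands highest, the groups separate at Tcrg-C3, Tcrg-C2 and Tcrg-C4, the neighbours are close to each other between the groups, and the unlabelled V and J genes lie near 0.

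The CD3 chains, without which no T-cell receptor reaches the surface, were nearly undetected in the same libraries. Cd3e, which makes CD3ε, was listed at 0 in all 3 WT libraries and at 0.0081, 0.013 and 0.038 in those labelled Sdc1-/-. Cd3g, which makes CD3γ, was at 0, 0.083 and 0.046 in the WT libraries and at 0.046, 0.036 and 0 in the others. The libraries overlapped for Cd3g, and for Cd3e all values were under 0.1, so no fold is given for either. Of the other chains, Cd3d stood at 0.566 ± 0.33 and 0.698 ± 0.080 and Cd247, the ζ chain, at 0.030 ± 0.018 and 0.010 ± 0.018 (SD, n = 3). Cd3d, Cd3e, Cd3g and Cd247 together came to 0.638 ± 0.31 in the WT libraries and 0.756 ± 0.087 in those labelled Sdc1-/-, beside 926 and 1046 for the gamma constant genes on the same scale per transcript length. Ptcra, the surrogate α chain of immature T cells, was at 0.392 ± 0.15 and 0.357 ± 0.043. None of these chains reached a mean of 1, and neither did the T-cell coreceptors Cd4 (0.093 and 0.024), which the sort also removed, and Cd8a (0.027 and 0.0084). Fewer cells of a type and less RNA per cell cannot be told apart in such bulk libraries.

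The constant genes of the other receptor chains were also low. Trdc, the constant gene of the δ chain that partners the γ chain, was at 0.054, 0.062 and 0.073 in the WT libraries and at 0.080, 0.104 and 0.116 in those labelled Sdc1-/-. Trbc1 had means of 0.121 and 0.138 and Trbc2 of 0.200 and 0.099, and both were listed at 0 in Sdc1-/- replicate 3. Trac, the α constant gene, was at 1.09 ± 0.37 and 1.65 ± 0.28 and missed the threshold (log2 fold change 0.35, adjusted p = 0.068), with an adjusted p of 0.014 without WT replicate 3 and of 0.032 on values of equal sum. Of the 8 constant genes of the 4 receptor chains, only Tcrg-C1, Tcrg-C2, Tcrg-C3, Tcrg-C4 and Trac reached a mean of 1 over these 6 libraries.

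The variable genes of the β, δ and α loci that passed the threshold were lower in those labelled Sdc1-/-. Both β genes tested were lower in the libraries labelled Sdc1-/-, with Trbv13-2 at 129, 129.6 and 111 against 67.9, 67.7 and 70.1 (log2 fold change -0.83, SE 0.061, adjusted p = 3.7e-05) and Trbv12-2 at 28.1 ± 3.7 against 8.07 ± 0.44 (log2 fold change -1.67, adjusted p = 1.1e-05). The other 51 β genes were below a mean of 1, 37 of them at 0 in all libraries. In the δ locus the 1 gene tested, Trdv2-2, was at 2.79 ± 0.43 and 0.579 ± 0.22 (log2 fold change -1.27, adjusted p = 1.9e-04), but 60.2% of its 31-base words also occur in Trdv2-1. In the α locus, 7 of 9 tested genes were lower, beside 31.3% of all genes tested, and these 7 count an identical pair separately. The other 2, Trac and Trav13-4-dv7 (0.753 ± 0.72 and 1.30 ± 0.67, log2 fold change 0.43, adjusted p = 0.33), did not pass. Under the minimum mean, Trav2 was at 0.138, 0.541 and 0.339 in the WT libraries and at 0.907, 1.19 and 0.738 in the others, and Trdv5 was listed at 0 in the WT libraries and stood at 0.080, 0.063 and 0.097 in the others. Trav18, with the highest level, was at 8.79 ± 1.2 and 5.33 ± 1.0 (log2 fold change -0.64, adjusted p = 0.0048). Trav4d-4 and Trav4n-4 had the same value in each library and are a single measurement, at 2.17 ± 0.20 and 0.762 ± 0.19 (log2 fold change -0.85, adjusted p = 4.3e-04), and Trav4-4-dv10 was at 1.90 ± 0.24 and 0.547 ± 0.33 (log2 fold change -0.93, adjusted p = 0.0028). Trav17 (log2 fold change -0.42, adjusted p = 0.024) and Trav12-4 (-0.79, adjusted p = 0.043) lost the call under several settings. On values of equal sum 5 α genes were lower and 1, Trac, higher, where 2367 of all 12150 genes tested were lower and 5290 higher.

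Il7r, the α chain of the interleukin-7 receptor, was low in both groups and lower still in those labelled Sdc1-/-. It had a level of 0.545, 0.475 and 0.598 in the WT libraries and of 0.086, 0.095 and 0.119 in the others. The groups did not overlap, and the mean of 0.539 ± 0.062 was 5.38-fold that of 0.10 ± 0.017 (SD, n = 3). With a pseudocount of 1 the log2 fold change was only -0.48 (SE 0.036), and with a pseudocount of 0.1 it was -1.67. Among the 8 genes Il7r alone had a smaller level in those labelled Sdc1-/- and no overlap between the groups.

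The rest of the interleukin-7 receptor pathway was measured at higher levels, with 10 of 12 genes tested, of which 3 rose and 7 fell in those labelled Sdc1-/-. Over all genes tested 29.3% were higher and 31.3% lower. The median log2 fold change was -0.21 over these 10 genes and -0.0097 over all genes. The kinase JAK3, made by Jak3, docks on the common γ chain, and Jak3 rose from 4.03 ± 0.52 to 8.80 ± 0.54 (log2 fold change 0.97, adjusted p = 1.0e-04). Il2rg, that common γ chain, rose from 80.6 ± 3.5 to 92.8 ± 0.71 (log2 fold change 0.20, adjusted p = 0.0030). Jak1 fell from 71.0 ± 1.0 to 53.6 ± 1.3 (log2 fold change -0.40, adjusted p = 5.7e-05). Crlf2, which joins with the product of Il7r in the TSLP receptor, was lower, 50.6 ± 2.6 against 38.4 ± 1.9 (log2 fold change -0.39, adjusted p = 6.9e-04). Cish, a feedback inhibitor that STAT5 induces, fell from 84.2 ± 4.6 to 53.4 ± 0.26 (log2 fold change -0.65, adjusted p = 2.4e-05). On values of equal sum, 3 of these genes were higher and 4 in place of 7 were lower. On that scale 5290 of all 12150 genes tested were higher and 2367 lower.

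Dntt and Rag1, the genes that act on the joints and cut the segments, were at the bottom of the scale. Dntt was listed at 0 in all WT libraries and in Sdc1-/- replicate 1 and at 0.0080 and 0.012 in the other 2 libraries. Rag1 was listed at 0 in 4 libraries, with 0.0030 in WT replicate 3 and 0.0047 in Sdc1-/- replicate 2. Neither gene separated the groups. Rag2, the partner of Rag1, was at 0.012 ± 0.011 and 0.0099 ± 0.0043. The general end-joining genes, which every cell uses to repair breaks, were in contrast measured well. Of 10 recombination and end-joining genes 9 were tested, 5 were higher, which is read beside 29.3% of all genes, and none was lower in the libraries labelled Sdc1-/-. Polm, a polymerase related to that of Dntt, was at 4.43 ± 0.46 and 7.28 ± 0.33 (log2 fold change 0.61, adjusted p = 4.2e-04). Xrcc6, which makes Ku70, was at 72.2 ± 3.9 and 106.8 ± 4.7 (log2 fold change 0.56, adjusted p = 1.0e-04), whereas Xrcc5, which makes its partner Ku80, was at 33.8 ± 0.69 and 33.4 ± 0.78 (log2 fold change -0.015, adjusted p = 0.73, with the sign turned on values of equal sum and after quantile normalization). Dclre1c, the nuclease Artemis that opens the hairpins left by RAG, was higher (log2 fold change 0.41, adjusted p = 7.6e-04), as was Prkdc, its activating kinase (0.34, adjusted p = 0.0040).

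Genes of T-cell surface and signalling were split in direction. Of 20 genes 9 were tested, 3 were higher and 5 lower, beside 29.3% and 31.3% of all genes tested, with a median log2 fold change of -0.29 against -0.0097 over all genes. Lck, the kinase that phosphorylates CD3 chains, was at 6.89 ± 1.1 and 14.1 ± 0.74 (log2 fold change 0.95, adjusted p = 1.7e-04), and the related kinase Fyn at 19.2 ± 2.3 and 29.5 ± 1.1 (0.60, adjusted p = 7.0e-04). The adaptor Skap1 fell by 0.63 (adjusted p = 6.1e-04) and Lcp2, the adaptor SLP-76, fell by 0.45 (adjusted p = 9.9e-05) on the log2 scale. Thy1, a surface glycoprotein of T cells and other cells, was at 291 ± 18 and 237 ± 15 (log2 fold change -0.30, adjusted p = 0.0050), and Lat at 128.7 ± 4.4 and 117 ± 2.7 (log2 fold change -0.13, adjusted p = 0.016). On values of equal sum the call for Thy1 was lost and the log2 fold change of Lat turned to 0.014, and Lat also missed the threshold without WT replicate 1 or Sdc1-/- replicate 2.

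Among 10 T-lineage transcription factors, 7 were tested, 3 were higher and 2 lower, beside 29.3% and 31.3% of all genes tested. Lef1 was at 0.594 ± 0.23 and 1.51 ± 0.23 (log2 fold change 0.66, adjusted p = 0.0038) and Runx3 at 11.2 ± 0.61 and 13.6 ± 0.36 (0.26, adjusted p = 0.0034). Ets1 fell by 0.71 (adjusted p = 1.5e-04) and Zbtb16, which makes PLZF, fell by 0.33 (adjusted p = 0.0026) on the log2 scale. Tox, at 17.7 ± 1.8 and 19.4 ± 0.81, did not pass (log2 fold change 0.13, adjusted p = 0.17) but did on values of equal sum. Bcl11b, which T-cell commitment requires, was at 0.012 and 0.020, and Gata3 at 0.070 and 0.031, both under the minimum.

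Early lymphoid progenitor genes were likewise divided, with 10 of 15 tested, 4 higher and 5 lower, beside the same 29.3% and 31.3%. Flt3, a receptor of early multipotent and lymphoid progenitors, was at 13.2 ± 0.51 and 7.71 ± 0.31 (log2 fold change -0.70, adjusted p = 3.2e-05). Ikzf1, which makes Ikaros, fell by 0.32 on the log2 scale (adjusted p = 1.2e-04). Sox4 was at 0.535 ± 0.036 and 2.33 ± 0.24 (log2 fold change 1.11, adjusted p = 4.1e-05), Hes1, a target of NOTCH, at 4.01 ± 0.10 and 7.27 ± 0.57 (0.72, adjusted p = 9.5e-05), and Lmo2 at 132.8 ± 2.5 and 192 ± 3.5 (0.53, adjusted p = 1.1e-05). The receptor gene Notch1 went the other way from Hes1, at 1.85 ± 0.31 and 1.025 ± 0.19 (log2 fold change -0.49, adjusted p = 0.0078).

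B-lineage genes were near 0 and NK and innate lymphoid genes were lower in the libraries labelled Sdc1-/-. Of 20 B-lineage genes 2 were tested and neither passed, Cd79b at 2.29 ± 0.34 and 2.12 ± 0.30 (log2 fold change -0.078, adjusted p = 0.55, of either sign under the alternatives) and Vpreb1 at 1.47 ± 0.27 and 1.65 ± 0.080 (log2 fold change 0.11, adjusted p = 0.36). The summed level of the 20 genes was 5.21 to 5.55 in the WT libraries and 5.09 to 6.03 in the others, with Vpreb2, Iglc1 and Iglc2 listed at 0 in all. Of 19 NK and innate lymphoid genes 7 were tested and 6 were lower, beside 31.3% of all genes tested, and their summed level was 602 to 609.5 in the WT libraries and 435 to 447 in the others. Nkg7 and Gzmb, genes of cytotoxic granules, fell from 340.3 to 286 and from 157 to 106 (log2 fold changes -0.25 and -0.56, adjusted p = 4.2e-04 and 7.4e-06). Ccl5 fell from 39.6 to 10.2 (log2 fold change -1.87, adjusted p = 1.1e-05), Prf1, which makes perforin, from 4.36 to 1.46 (-1.13, adjusted p = 1.4e-05), Gzma from 1.6 to 0.405 (-0.89, adjusted p = 1.5e-04) and Il1rl1 from 54.7 to 30.0 (-0.84, adjusted p = 1.1e-04). Ncr1, a defining receptor of NK cells, was at 0.011 and 0.0079. Genes of the lineage gate were also lower in those labelled Sdc1-/-, Itgam from 23.6 to 7.33 (log2 fold change -1.57), Ly6g from 8.77 to 1.97 (-1.72) and Ptprc from 26.9 to 22.8 (-0.23, lost on values of equal sum), and their part in the differences of the gamma constant genes was not tested.

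**Figure D4:**
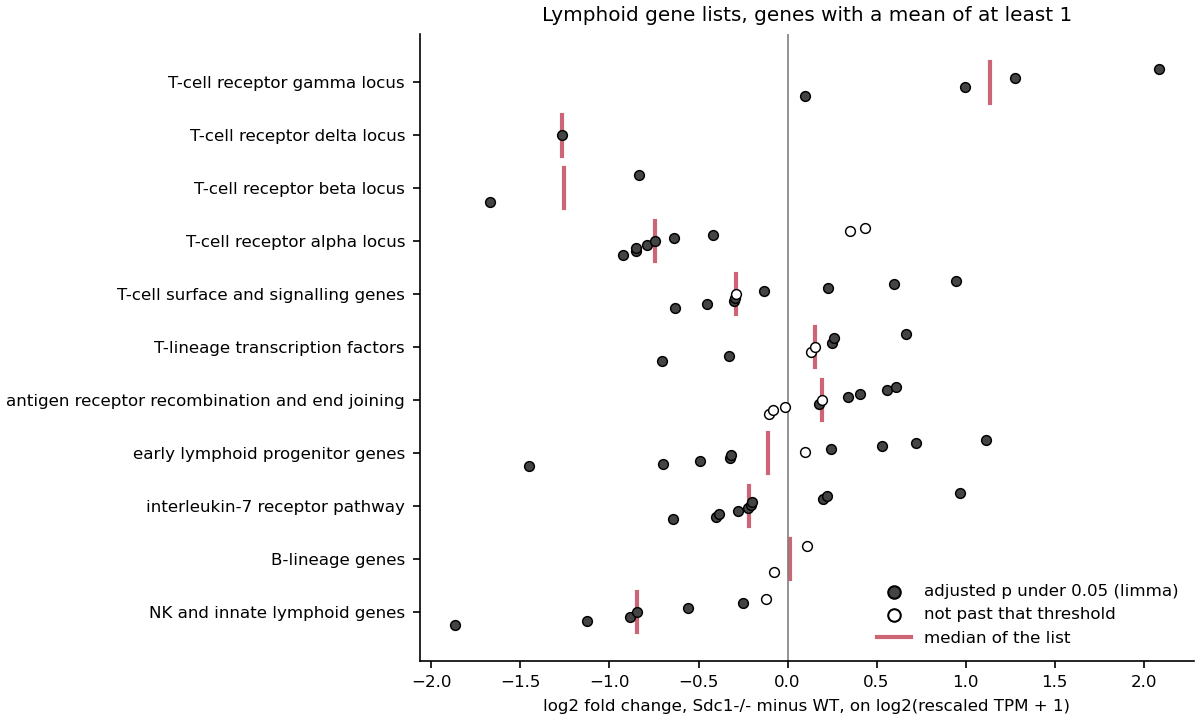
Log2 fold change between the libraries labelled Sdc1-/- and the WT libraries (horizontal axis, on log2(rescaled TPM + 1)) of each gene whose mean reached 1 in 11 lymphoid lists, filled where limma's adjusted p was under 0.05, with the median of each list as a red bar. The 4 gamma constant genes lie right of 0, the tested β and δ genes left of it, and the other lists are mixed or, for NK and innate lymphoid genes, on the left.

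Over the 374 lymphoid genes outside the 8, 67 were tested, of which 19 rose and 35 fell in those labelled Sdc1-/-, beside 29.3% and 31.3% of all genes tested. Their median log2 fold change was -0.20 and that of all genes tested -0.0097. On values of equal sum 66 were tested, with 25 higher and 26 lower. On that scale the calls over all 12150 genes tested moved too, to 5290 higher and 2367 lower. The genes whose pattern over the 6 libraries was most like the summed level of Tcrg-C1, Tcrg-C2 and Tcrg-C4 were 4833420G17Rik, Oxsr1 and Oxct1, with Pearson correlations of 0.9992, 0.9983 and 0.9976 on the log2 scale. A correlation over 0.95 was held by 1445 of the 12152 genes compared, since the 6 libraries form 2 groups and share their scaling, so that this likeness is a description of the ordering only.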

How the data were processed

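RNA-seq libraries (150 ng RNA, TruSeq Stranded mRNA, single reads of 75 bases) were quantified by the authors with kallisto and summed per gene for sleuth 0.30.0, per the submitters' processing notes, which name mm10. The kallisto version, transcriptome and strand setting are not given in the sources used here. The deposited values are a signal per gene, TPM rescaled between libraries by the authors. Rescaling shifts all genes of a library together. Counts are not used here, so depth is unknown. A second table holds the authors' own comparison and was not used.

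The 8 genes and all gene lists were chosen with earlier results of these data known. Identifiers were matched to symbols in GENCODE M21 (35454 of 36083). limma 3.58.1 (R 4.3.3) was fitted to log2(value + 1) of the 12155 genes whose mean reached 1, with a variance trend and Benjamini-Hochberg adjustment over all genes tested, and was tested on simulated data. This replaced a fit planned for TPM as such. The simulated libraries were drawn independently, so they cannot show whether the real replicates are technical or how scaling matters. Fold changes on that scale understate those of low genes. Named were the 8 genes, the gamma locus genes whose mean reached 1 and its 2 nearest coding neighbours per side, Rag2, the CD3, pre-TCR and constant chains, and of each other list up to 4 called genes with the largest change and the 2 with the highest mean. Genes named beyond that (Cd4, Cd8a, Bcl11b, Gata3, Ncr1, Trav13-4-dv7, Trav2, Trdv5, gamma V genes) were chosen after their values were seen, and a few that the rule names are not reported here. Shared sequence was counted in words of 31 and 75 bases of the GENCODE transcripts. Alternatives were pseudocounts of 0.1 and 0.5, no minimum and a minimum of 5, values scaled to a sum of 1000000, quantile normalization, no variance trend, the replicate number as a block and leaving out each library. Python 3.11.15, pandas 2.3.3 and matplotlib 3.10.9 were used.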

Additional observations from a re-analysis of the deposited data

How the results depend on the processing

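Tcrg-C2 and Tcrg-C4 kept their direction under all 15 alternatives, with log2 fold changes of 1.26 to 1.42 and 2.06 to 2.22, and Tcrg-C1 under the same 15, at 0.078 to 0.245. Of the 3 genes among the 8 that were tested, 2 to 3 were past the threshold when each library was left out in turn. Over all genes, leaving out a library gave 6463 to 6960 calls, 3083 to 3353 higher and 3380 to 3608 lower, and for the lymphoid lists 16 to 19 higher and 30 to 34 lower. The gamma locus and its neighbours then held 4 to 7 calls, and the change of Sdc1 was 0.905 to 1.06 on the log2 scale. On values scaled to the same sum, 2367 genes were lower, which is 30.9% of the calls in place of 51.7%. With a minimum mean of 5, 13 lymphoid genes were higher and 22 lower, among fewer genes tested. Over all 8966 genes tested with that minimum, 52.2% of the calls were lower. The sign turned on values of equal sum for Epdr1 (0.025), Xrcc5 (0.129), Lat (0.014) and Cd79b (0.024), after quantile normalization for Xrcc5 (0.002), without Sdc1-/- replicate 3 for Xrcc5 (0.004, range -0.032 to 0.004 with a library left out) and without WT replicate 2 for Cd79b (0.002, range -0.140 to 0.002), and the cause was not tested. The added setting of no minimum with a pseudocount of 0.1 was chosen after seeing the data. Same-numbered libraries deviated together at correlations of 0.151, -0.0083 and 0.018, beside -0.1565 to 0.1418 for pairs of unlike number. No pairing by replicate number was visible, but 3 libraries per group are too few to exclude one. With the number as a block, all 3 tested genes of the 8, 20 higher and 34 lower lymphoid genes were called. Over all 12155 genes tested in that fit, 52.1% of the calls were lower. Depth is not known and limits what can be said of genes below a value of 1.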
